A study of Mus musculus with 14 samples.

Results

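Semaphorins, their plexin and neuropilin receptors, and the collapsin response mediators that act behind those receptors were followed in differentiating mouse embryonic stem cells after a pulse of GLI1. The set holds 36 genes named by symbol: 7 secreted semaphorins of class 3, 13 membrane semaphorins of classes 4 to 7, 9 plexins, 2 neuropilins and 5 collapsin response mediators. They were matched by Entrez identifier to the authors' 2 tables, which together hold 16060 genes. At D10, 35 of the 36 had a row among 15744 genes, and at D5 33 had one among 15108. Plxnb3, a receptor for Sema5a, was not analysed here on either day, and Sema3g and Sema4a, semaphorins known mainly from endothelium and from the immune system, were not analysed here at D5. At D10 the log2 fold changes of Sema3g and Sema4a, induced over control, were 0.034 and 0.00024 in the authors' deposited table.

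The cells were of the line GLI1-FTA in the A2Lox.cre background, a mouse stem cell background used for doxycycline-driven transgenes, and every group was put through neural differentiation. GLI1-induced cells received doxycycline at 500 ng/ml, which switches the transgene on, over the 48 hours between D3 and D5, and control cells of the same line received none, so drug and transgene changed together. Poly(A) RNA was sequenced from 3 GLI1-induced and 3 control samples harvested at D10, labelled immature neurons, 5 days after the drug was washed out. At D5, labelled neural progenitor cells, there were 4 GLI1-induced and 4 control samples. The induced line is a single line, and the labels do not say whether replicates were separate cultures, so the p-values concern the spread between these samples only. No value per library was used, so depth per sample is unknown and neither values by sample nor overlap between groups can be shown.

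Semaphorins are extracellular cues, secreted or held on the cell surface, that steer growing axons, migrating neurons and vessels, most often by repulsion. Plexins are the signalling receptors. They carry a cytoplasmic domain that switches off Ras-family GTPases, and most class 3 semaphorins need a neuropilin as the binding partner of a plexin, while membrane semaphorins bind plexins directly. The collapsin response mediators are cytoplasmic proteins, several of which bind tubulin, and they pass the signal to the growth cone. In the neural tube these genes guide commissural and motor axons around the ventral midline, whose floor plate is patterned by Hedgehog signals that GLI factors carry into the nucleus.

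The promoter stretches of the genes that changed are shown because GLI1 is a DNA-binding factor. They come from RefSeq on build GRCm38.p6, hold no annotated exon, and are written 5′ to 3′ on the + strand with each CG pair in capitals. The Sema3e stretch lies at chr5:14025026-14025275 and the Crmp1 stretch, ahead of the first of its listed starts, at chr5:37241808-37241939.
Sema3e: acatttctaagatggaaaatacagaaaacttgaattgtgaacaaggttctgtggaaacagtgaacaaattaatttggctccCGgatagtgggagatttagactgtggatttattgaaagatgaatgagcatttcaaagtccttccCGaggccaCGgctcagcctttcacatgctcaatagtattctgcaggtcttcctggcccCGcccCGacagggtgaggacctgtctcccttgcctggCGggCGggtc
Crmp1: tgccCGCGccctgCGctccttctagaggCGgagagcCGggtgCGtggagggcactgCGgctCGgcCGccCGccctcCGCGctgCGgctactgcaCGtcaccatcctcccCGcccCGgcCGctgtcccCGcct
The Sema3e stretch of 250 bases held 7 CG pairs, against a median of 6 in the 250 bases before all 32851 listed starts. The printed Crmp1 stretch of 132 bases held 18, and a second Crmp1 stretch of 250 bases, at chr5:37245514-37245763 and not printed, held 16. The window of Plxna2, the other gene that changed, overlaps annotated exons and is not printed. The 9-letter GLI site GACCACCCA (or TGGGTGGTC on the other strand) was in 0 of the 40 windows of 300 bases listed for 28 of the 36 genes, and in 0.253% of all windows. Its inner 7 letters ACCACCC (or GGGTGGT), which lie within that site, were in 1 of the 40 windows, that of Sema6b, and in 4.61% of all windows. Among the 334 windows of genes higher at D5, 0 held the 9-letter site and 11 the inner letters (3.29%). A site so rare in all windows cannot set 40 windows apart by its absence, so no conclusion is drawn. These letters were searched only from 250 bases before to 50 after a start.

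The table headers do not say which group is on top of the fold change, and induced over control was taken from Gli1, the induced gene, which therefore is no separate check of the labels' direction. Its log2 fold change was 0.57 at D10 (adjusted p = 0.780) and 4.79 at D5 (adjusted p = 1.12e-81) by the authors' deposited tables. CPM below stands for counts scaled to the library total (counts per 1e6). In the authors' deposited table the D10 cultures carried neuron transcripts, with average log2 CPM of 9.11 for Dcx and 8.29 for Tubb3, and also 9.04 for the simple-epithelium keratin gene Krt18. In the authors' deposited table the D5 cultures carried neural progenitor transcripts, with 7.38 for Sox2 and 9.08 for Nes. The same D5 cultures, in the authors' deposited table, had 7.72 for neuronal Tubb3, 8.36 for endodermal Cubn and 8.08 for endodermal Dab2. At D10 Dab2 stood at 8.58 and Nes at 7.75 in the authors' deposited table. Of 7 microglia and macrophage markers, 1 had a row at D10 and 0 at D5.

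At D5, while GLI1 was induced, few genes of the semaphorin system changed. A gene was called changed at an adjusted p under 0.05 over all genes of the day. By that rule 3 of 33 measured genes passed in the authors' deposited table, 2 higher (Sema3e and Plxna2) and 1 lower (Crmp1), which is 9.09% of them beside 4.44% of all genes tested. Split by direction, 2.34% of all genes tested were higher and 2.1% lower. The median log2 fold change of the 33 genes was 0.015 in the authors' deposited table, and that of all genes was 0.0015. With signs left out, the median size of the log2 fold change was larger for the 33 genes, 0.18 against 0.087 for all genes. At an unadjusted p under 0.05 there were 7 of 33, beside 10.7% of all genes. Signs were divided, with 17 of the 33 genes above 0 and 16 below, beside 50.5% of all genes above 0.

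Sema3e (Entrez 20349), a secreted semaphorin that binds plexin D1 without a neuropilin and guides both axons and vessels, had the largest change. The deposited average and fold change imply a mean of 11.5 CPM in induced and 5.78 CPM in control cells at D5, a derived pair that rests on the average being the mean of both groups. Its log2 fold change was 0.99 in the authors' deposited table (adjusted p = 5.39e-05), 1.98-fold higher in induced cells, with an implied SE of 0.20. This implied SE comes from the fold change and the z-score matching its p-value, and a 95% interval built from it ran from 0.59 to 1.38. Plxnd1, its receptor, missed the threshold at -0.20 (adjusted p = 0.960) in the authors' deposited table.

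No other secreted semaphorin passed at D5. The ligands Sema3a, which collapses growth cones through neuropilin 1, and Sema3f, which acts through neuropilin 2, had values of 0.18 and 0.20 in the authors' deposited table. Sema3c, a cue for neural crest and cortical axons, stood at -0.052 in the authors' deposited table. Sema3b and Sema3d, the other measured class 3 members, had values of -0.41 and -0.32 in the authors' deposited table, with wide intervals (from -0.96 to 0.14 for Sema3b).

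No membrane semaphorin passed at D5, and 9 of the 12 measured were below 0 in the authors' deposited table. Over all genes, 50.5% were above 0 at D5. The 2 with an unadjusted p under 0.05 belong to class 4: Sema4g at -0.40 (adjusted p = 0.205, implied SE 0.16) and Sema4b at -0.30 (adjusted p = 0.283) in the authors' deposited table. Sema4c, the ligand of plexin B2, stood at 0.08 and Sema4d, the ligand of plexin B1, at -0.09 in the authors' deposited table. The class 5 genes, whose proteins carry thrombospondin repeats, were close to 0, with Sema5a at -0.031 and Sema5b at 0.032 in the authors' deposited table. Sema6a, a ligand of plexins A2 and A4, stood at 0.25 in the authors' deposited table. Sema6c at -0.29, Sema6b at -0.31, Sema6d at -0.07, the lipid-anchored Sema7a at -0.20 and Sema4f at -0.0074 complete the membrane class in the authors' deposited table.

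Among receptors, Plxna2 (Entrez 18845) rose at D5. Plexin A2 binds Sema6a directly and serves class 3 semaphorins together with neuropilins. The derived means were 229 CPM in induced and 178 CPM in control cells. Its log2 fold change was 0.36 in the authors' deposited table (adjusted p = 0.00725), or 1.29-fold, with an implied SE of 0.10 and an interval from 0.17 to 0.55. Plxnc1, the receptor of Sema7a, had a value of the same size, 0.36 in the authors' deposited table, with a larger implied SE of 0.12, and missed the threshold (adjusted p = 0.0700). With Plxnc1 added, 4 of 33 genes passed at a threshold of 0.1, beside 5.32% of all genes, and the same 4 passed with z rescaled within bins of genes of like level, beside 5.1% of all genes. The plexins closest in kind to Plxna2 stood at 0.028 for Plxna1, 0.015 for Plxna3 and 0.07 for Plxna4 in the authors' deposited table. Plxnb1 at 0.11 and Plxnb2 at 0.05 in the authors' deposited table did not pass either.

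The neuropilins had opposite signs at D5 and neither passed. Nrp1, which pairs with A-type plexins for Sema3a and also binds vascular endothelial growth factor (VEGF), stood at 0.25 in the authors' deposited table (adjusted p = 0.591). Nrp2, the partner for Sema3f, stood at -0.38 in the authors' deposited table (adjusted p = 0.401). The derived means of Nrp2 were 12.7 CPM in induced and 16.5 CPM in control cells.

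Crmp1 (Entrez 12933), a neuronal mediator of the growth cone response to Sema3a, fell at D5. The derived means were 120 CPM in induced and 149 CPM in control cells. Its log2 fold change was -0.31 in the authors' deposited table (adjusted p = 0.0444), 1.24-fold lower, with an implied SE of 0.10. Crmp1 did not pass at a threshold of 0.01, and neither Crmp1 nor Plxna2 passed with Holm's adjustment. Dpysl3, another mediator of young neurons, stood at -0.18 in the authors' deposited table, and Dpysl2 at 0.08, Dpysl4 at 0.09 and Dpysl5 at 0.07 in the authors' deposited table did not pass.

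The neuron markers that passed at D5 had the direction of Crmp1. By the authors' deposited table, Nefm, Nefl, Gap43, Ina, Tubb3 and Stmn2 fell, 6 of the 14 on the neuron list, with 0 higher. The 14 ran from -1.61 for Nefm to 0.53 for Rbfox3, and their median was -0.34. Of the 14, 11 were below 0 and 3 above. The fall was not shared by the whole list. Among the 8 that did not pass, Dcx stood at -0.0026, Elavl3 at 0.05, Elavl4 at 0.11 and Map2 at -0.28 in the authors' deposited table. Markers of endoderm were lower in 4 of 8 measured cases and those of epithelium in 3 of 7, while 5 of 6 measured floor plate markers were higher, all by FDR in the authors' deposited table of D5. Beside these marker counts, 2.1% of all genes tested at D5 were lower and 2.34% higher. Among the endoderm markers that did not pass, Afp at 0.86 and Ttr at 0.54 were positive in the authors' deposited table. Of 8 neural crest and mesenchyme markers, Pdgfrb at 1.64 and Col3a1 at 1.55 were higher and Pdgfra at -0.81 lower in the authors' deposited table. Of 10 neural progenitor markers, 1 was higher, Slc1a3 at 1.11 in the authors' deposited table. Of 12 endothelial markers, 6 were measured at D5 and 1 of them, Sox18, was higher, while Pecam1, Tie1, Emcn, Cldn5 and Erg were not analysed here. In these bulk cultures, fewer cells of a type and less RNA per cell cannot be told apart, and the part of these lists in the values of Crmp1, Sema3e and Plxna2 was not tested. The plots of fold changes and of group levels show these 3 genes beside the others.

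**Figure D1:**
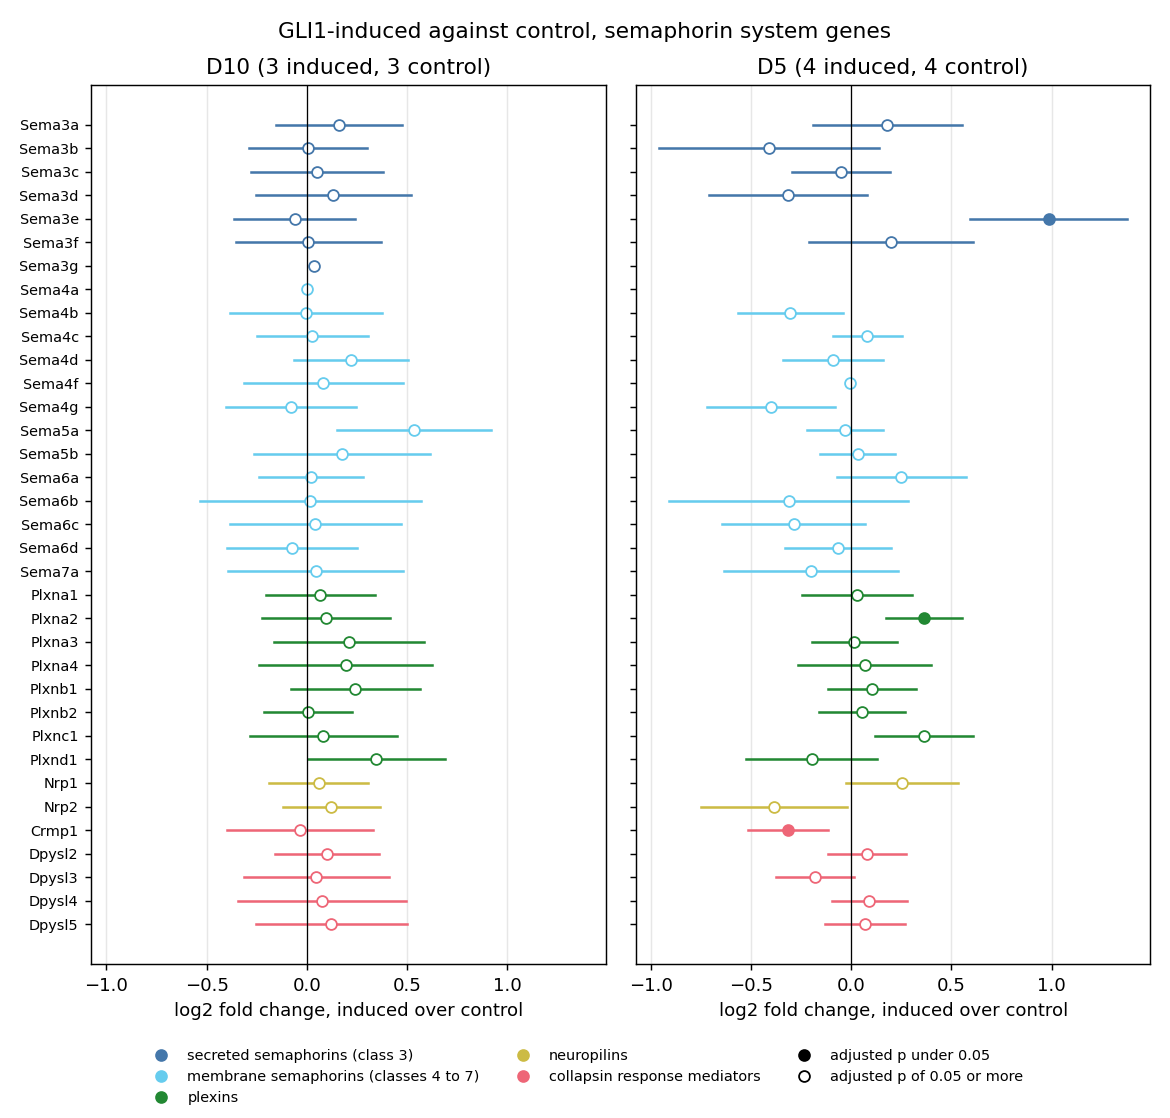
Log2 fold change of GLI1-induced over control samples for each gene (circles) at D10 (left) and D5 (right), with 95% intervals from the implied SE (lines, absent where the p-value is 1) and filled circles for an adjusted p under 0.05. At D5 Sema3e at 0.99 and Plxna2 at 0.36 lie to the right and Crmp1 at -0.31 to the left as filled circles, and no circle is filled at D10.

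**Figure D2:**
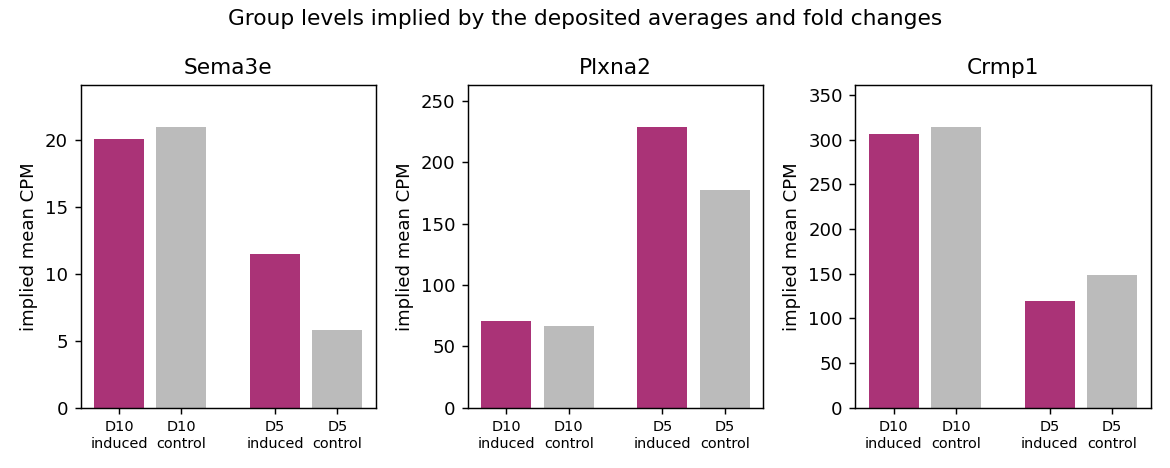
Mean CPM of Sema3e, Plxna2 and Crmp1 in GLI1-induced and control samples at D10 and D5, derived from the deposited average and fold change and so without an error bar. The D5 pairs differ (11.5 and 5.78 CPM for Sema3e in induced and control cells) and the D10 pairs lie close together (20.1 and 20.9 CPM for Sema3e).

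The D5 data bound how much the other genes could have moved. The implied SE of the 32 genes that have one ran from 0.09 for Sema4c to 0.30 for Sema6b, with a median of 0.13. The 95% interval lay within a 2-fold change in either direction for 31 of these 32 genes, with Sema3e as the exception. Sema4f, whose p-value is 1, gives no SE.

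At D10, 5 days after washout, no gene of the semaphorin system passed. By the same rule 0 of 35 measured genes were called in the authors' deposited table, beside 0.0826% of all genes. The sources used here do not name the test behind those p-values. At a threshold of 0.1 the count was also 0, beside 0.0889% of all genes, and at an unadjusted p under 0.05 it was 2 of 35, beside 1.53% of all genes. Signs leaned one way, with 30 of the 35 genes positive by the authors' deposited table and a median of 0.06, while 51.1% of all genes were above 0 with a median of 0.0027. Marker lists leaned as well at D10. Neural progenitor markers were positive in 10 of 10 cases (median 0.18), and endoderm and epithelium markers were negative in 8 of 9 cases each (medians -0.11 and -0.087), by the authors' deposited table. Neuron markers were positive in 10 of 14 cases (median 0.043). None of those markers passed, although Nes, Fabp7 and Slc1a3 did with rescaled z, beside 0.769% of all genes. The part of the marker lists in the signs of the semaphorin system genes was not tested.

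Sema5a had the log2 fold change farthest from 0 at D10 and did not pass. The derived means were 11.1 CPM in induced and 7.67 CPM in control cells. Its log2 fold change was 0.53 in the authors' deposited table (adjusted p = 1, unadjusted p = 0.00624). Sema5a had an implied SE of 0.20 and an interval from 0.15 to 0.92. With z from the authors' deposited p-values rescaled within bins of genes of like level, it was the 1 of 35 to pass (adjusted p = 0.0119), beside 0.769% of all genes. Plxnd1, the other gene with an unadjusted p under 0.05 (0.0469), stood at 0.35 in the authors' deposited table (implied SE 0.17). The derived means of Plxnd1 were 12.7 CPM in induced and 9.97 CPM in control cells.

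All 8 measured plexins were above 0 at D10, from 0.0057 for Plxnb2 to 0.35 for Plxnd1 in the authors' deposited table, and none passed. Plxnb1 at 0.24 (implied SE 0.16), Plxna3 at 0.21 (implied SE 0.19) and Plxna4 at 0.19 followed Plxnd1 in the authors' deposited table. Neither neuropilin passed, with Nrp2 at 0.12 and Nrp1 at 0.06 in the authors' deposited table. The collapsin response mediators ran from -0.034 for Crmp1 to 0.12 for Dpysl5 in the authors' deposited table. Every adjusted p among the 35 genes was 1. Among semaphorins, Sema4d at 0.22 (implied SE 0.14), Sema5b at 0.17, Sema3a at 0.16 and Sema3d at 0.13 came after Sema5a in the authors' deposited table, and the other 15 lay between -0.08 and 0.08. The 95% intervals of all 33 genes with an implied SE lay within a 2-fold change. Among the marker lists, floor plate was the one with calls at D10, with 5 of 7 higher at D10 in the authors' deposited table, beside 0.0826% of all genes.

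The response of Sema3e differed between the days. Its log2 fold change was -0.06 at D10, against 0.99 at D5, in the authors' deposited tables. The D10 pair of derived means was 20.1 CPM in induced and 20.9 CPM in control cells. The difference, D10 minus D5, was -1.05 with an SE of 0.25, and its p, computed from the implied SEs with a normal reference, was 0.00416 after Benjamini-Hochberg adjustment over 14792 genes. It was 1 of 33 semaphorin system genes to pass, beside 1.24% of all genes. The difference did not pass with Holm's adjustment of the p-values computed from the authors' deposited tables (adjusted p = 0.45).

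The fold changes of Plxna2 and Crmp1 were not shown to differ between the days. For Plxna2 the difference was -0.27 (SE 0.19, adjusted p = 1), with 0.10 at D10 against 0.36 at D5 in the authors' deposited tables. For Crmp1 it was 0.28 (SE 0.21, adjusted p = 1), with -0.034 at D10 against -0.31 at D5 in the authors' deposited tables. From the authors' deposited values, 4 of 33 genes had an unadjusted p under 0.05 for the difference, beside 4.91% of all genes. Besides Sema3e, differences computed from the authors' deposited tables put there Sema5a at 0.56 (adjusted p = 0.376), Nrp2 at 0.51 (adjusted p = 0.649) and Plxnd1 at 0.54 (adjusted p = 0.675), each with the higher log2 fold change at D10.

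Levels of many semaphorin system genes, taken over induced and control samples together, stood apart between the days. The authors' deposited tables hold each day apart, each scaled by itself, so these values are set side by side with no test. The average log2 CPM was at least 1 higher at D10 for 12 of 33 genes, beside 12.2% of all genes, and at least 1 lower for 4, beside 5.69%. The median difference, D10 minus D5, was 0.24 for the 33 genes and 0.0053 for all genes.

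Nrp2 had the widest gap, with an average log2 CPM of 6.70 at D10 and 3.87 at D5 in the authors' deposited tables. The secreted ligands were all higher at D10, 6 of 6, beside 50.4% of all genes. Sema3b led, at 4.4 at D10 and 2.15 at D5 in the authors' deposited tables. The gap was at least 1 for 4 of the 6. Those of Sema3c at 0.24 and Sema3f at 0.20 lay within the middle 50% of all genes. Sema3e itself stood at 4.36 at D10 and 3.11 at D5 in the authors' deposited tables, so that the derived level of control cells at D10 was above that of induced cells at D5. Crmp1 stood at 8.28 at D10 and 7.07 at D5 in the authors' deposited tables.

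Sema5a went the other way, with 3.23 at D10 and 5.44 at D5 in the authors' deposited tables. Plxna2 stood at 6.10 at D10 and 7.67 at D5 in the authors' deposited tables. Sema5b and Plxnc1 were the other 2 genes at least 1 lower at D10, with gaps of -1.15 and -1.09. Plxna3 and Plxna1 had narrow gaps of 0.09 and 0.16.

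Cell type markers differed in level between the days as well. Neuron markers were higher at D10 in 14 of 14 cases, with a median gap of 1.49, and epithelial markers in 7 of 7 with a median gap of 2.30. Neural crest and mesenchyme markers were higher at D10 in 7 of 8, with a median gap of 2.83, and neural progenitor markers were lower in 7 of 10, with a median gap of -1.13. Their part in the levels of Nrp2, Sema3b or Sema5a was not tested.

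**Figure D3:**
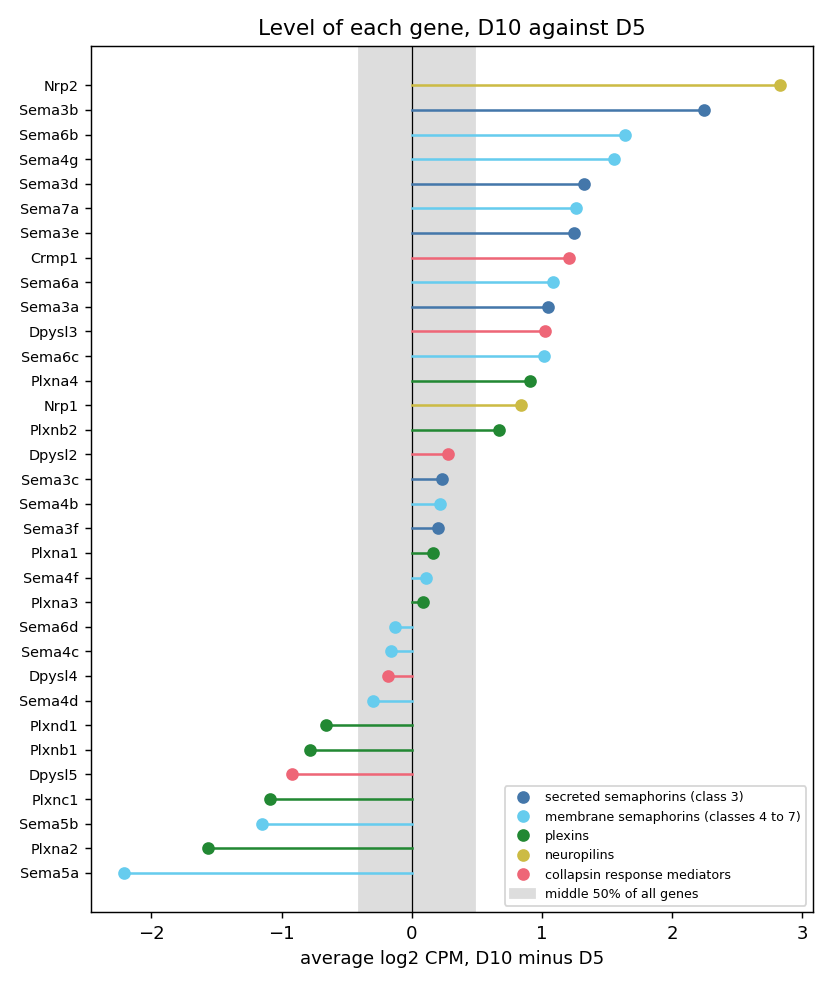
Average log2 CPM at D10 minus that at D5 for each gene measured on both days, coloured by class, with the middle 50% of all genes in grey (from -0.40 to 0.49). Nrp2 at 2.83 and Sema3b at 2.25 lie furthest to the right and Sema5a at -2.21 furthest to the left.

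Per kilobase of exon, the 7 highest levels at D10 were those of the 5 collapsin response mediators and of Plxna1 and Plxnb2. At D5 the order differed, with Plxnb1 at 21.5 CPM per kilobase above Crmp1 at 19.0 and Sema4c above Dpysl3 at 13.7. Average CPM was divided by the kilobases of annotated exon in GENCODE M21, which may differ from the exons the authors counted. At D10 the highest values were 44.0 CPM per kilobase for Crmp1, 39.3 for Plxna1 and 38.7 for Plxnb2. At D5 they were 44.9 for Dpysl5, a mediator of young neurons, 35.1 for Plxna1 and 26.3 for Dpysl2. The highest semaphorin on both days was Sema4c, at 14 CPM per kilobase at D10 and 15.7 at D5. With the GENCODE basic exons, a choice made after seeing the data, Sema5b was above it at D5, at 18.1 CPM per kilobase against 16.9 for Sema4c. The highest secreted semaphorin was Sema3b at D10, at 4.43 CPM per kilobase, and Sema3c at D5, at 2.74. Sema3e, the semaphorin that rose, stood at 2.21 CPM per kilobase at D10 and 0.93 at D5, rank 25 of 35 and rank 28 of 33 genes. Crmp1 at D10 and Dpysl5 at D5 also had the highest values with the GENCODE basic exons, while Crmp1 at D5 had rank 2 with those exons and rank 7 with all annotated exons. Exons of Plxna1, Sema4c and Plxnb1 overlap genes on the opposite strand over 10.7%, 7.27% and 2.68% of their length, and the sources used here do not say whether counting used strand.

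**Figure D4:**
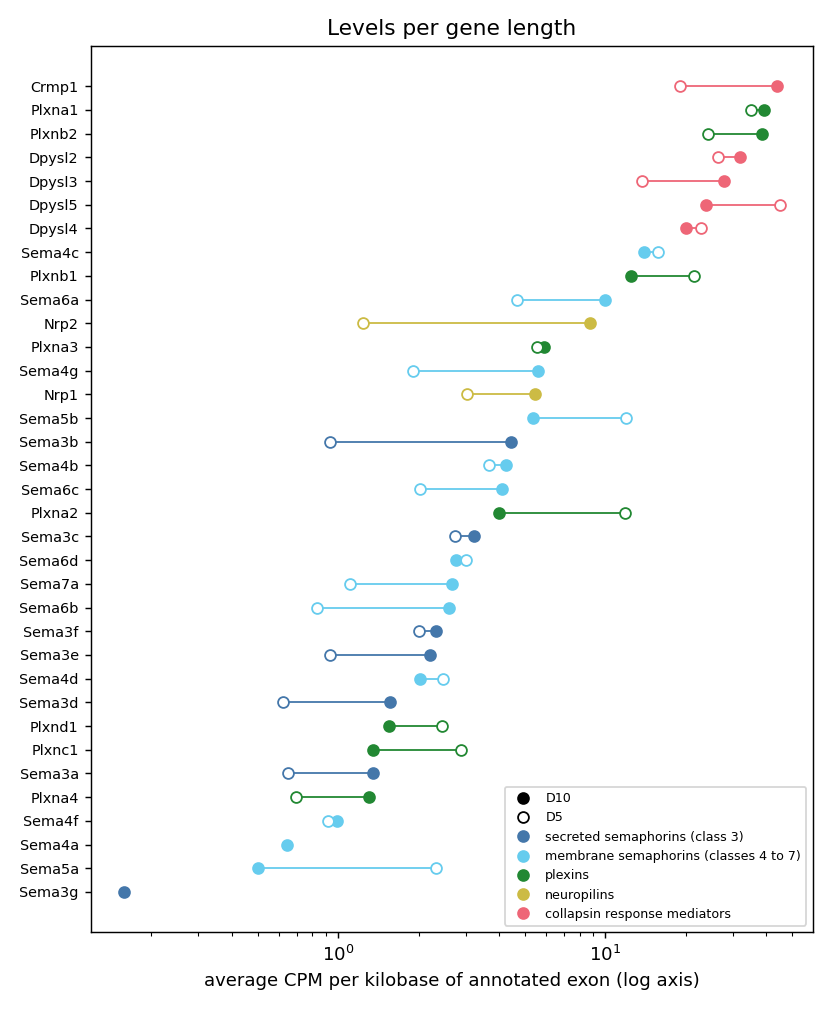
Average CPM per kilobase of annotated exon (log axis) at D10 (filled) and D5 (open) for each gene, ordered by the D10 value and coloured by class. The collapsin response mediators and Plxna1 and Plxnb2 fill the top rows by D10 value, and the secreted semaphorins lie below 5 CPM per kilobase.

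The partners and transducers of semaphorin signalling, a list of 58 genes chosen by known role, held 3 calls among 53 measured at D5 in the authors' deposited table, 2 higher and 1 lower, or 5.66% beside the 4.44% of all genes. At D10, 0 of 55 passed in the authors' deposited table, beside 0.0826% of all genes, with 1 at an unadjusted p under 0.05, beside 1.53%. The 36 cytoplasmic transducers at D5, such as the small GTPases, their regulators and the kinases Fyn, Fes and Cdk5, had 0 calls, beside 4.44% of all genes, 2 genes at an unadjusted p under 0.05, beside 10.7%, and a median of 0.0097.

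Of the 3 calls at D5, 2 were among 13 measured co-receptors and cell-surface partners and 1 among 4 measured ligands that bind neuropilins. Over all genes 4.44% were called, and with so few calls no pattern by class can be read. Cntn2, a cell adhesion molecule of outgrowing axons, was 2.0-fold lower at D5, with a log2 fold change of -1.0 in the authors' deposited table (adjusted p = 6.6e-05, implied SE 0.20). Sdc3, a neuronal heparan sulfate proteoglycan, rose at D5, by 0.48 in the authors' deposited table (adjusted p = 0.000709, implied SE 0.11). Pgf, a VEGF family ligand of Flt1 that also binds neuropilin 1, stood at 3.59 in the authors' deposited table (adjusted p = 2.04e-12, implied SE 0.46), with derived means of 1.73 CPM in induced and 0.144 CPM in control cells, so the fold rests on a very low control level. Vegfa, the main ligand of that family, missed the threshold at 0.28 (adjusted p = 0.172) in the authors' deposited table.

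**Figure D5:**
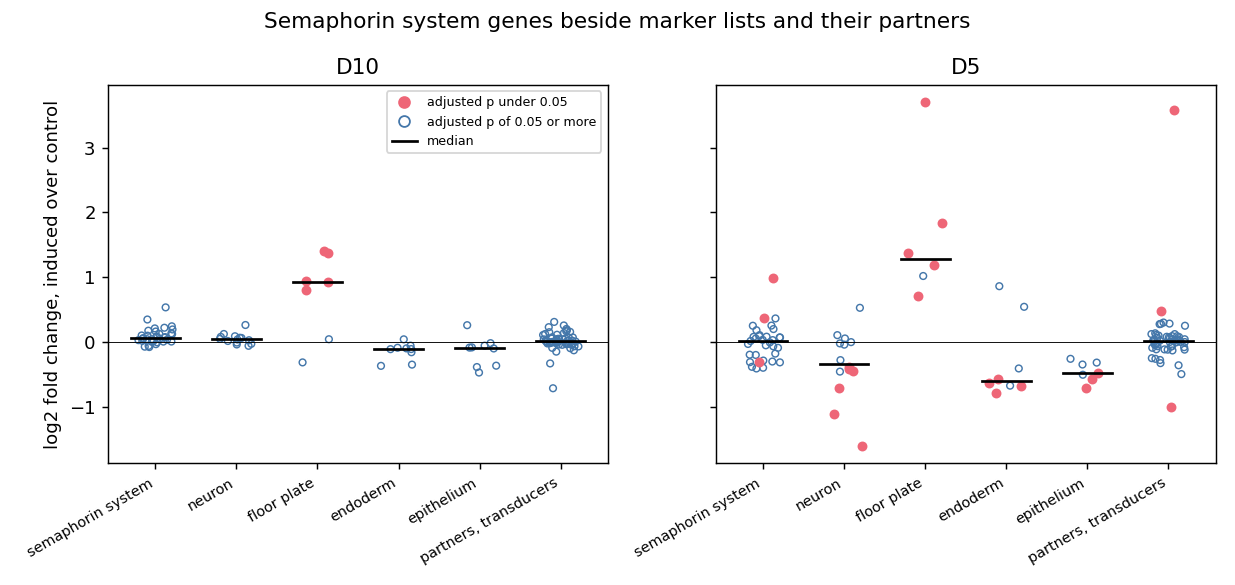
Points give the log2 fold change of induced over control samples at D10 (left) and D5 (right) for the semaphorin system genes, for marker lists of neurons, floor plate, endoderm and epithelium, and for the partners and transducers, 1 point a gene, with medians as black bars and genes with an adjusted p under 0.05 filled. The semaphorin system and its partners centre near 0 on both days, while the median of the neuron markers at D5 is -0.34.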

How the data were processed

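The data were the authors' comparisons of poly(A) RNA, read as 50-base single-end sequences per the labels' protocols, from 14 samples: 3 GLI1-induced and 3 control at D10, and 4 and 4 at D5. Each of the authors' deposited tables gives, per the file headers, a log2 fold change, an average log2 CPM, a p-value and an FDR (adjusted p-value) for each Entrez gene. The headers give neither direction nor log base: induced over control was read from Gli1, CPM read as log2 sum to 1001340 at D10 and 1001540 at D5, and the fold changes were taken to share that base. Symbols came from RefSeq, which matched 94.6% of identifiers. The sources used here do not give the aligner, counter, build, low-count filter or test, and the filter decides which genes have a value.

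From these values Python 3.11.15 with numpy 2.4.6, pandas 2.3.3 and scipy 1.17.1 gave an implied SE (log2 fold change over z), 95% normal intervals, the difference between days with Benjamini-Hochberg adjustment over 14792 shared genes, and group means in CPM derived from the average and the fold. A deposited p-value of 1 gives no SE. The difference between days was tested on data simulated with normal errors and SEs taken from these data, which cannot test the normal reference itself. The group means and the rescaled z were not tested in this way. No list test was run.

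Each of the 36 genes is accounted for by value, range or as not analysed here (Plxnb3). Full statistics go to called genes and to the 5 with the smallest p on each day. The genes and lists were chosen with earlier results of these data known. Alternatives were other thresholds, Holm's adjustment, a 2-fold minimum, a minimum average log2 CPM of 1, z rescaled within bins of about 500 genes, re-centring, and, added after seeing the data, another exon set. Promoter windows were the RefSeq ones on GRCm38.p6, and exon lengths came from GENCODE M21.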

Additional observations from a re-analysis of the deposited data

Results flagged for a closer look

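In 1 of 33 semaphorin system genes and 2 of 52 partners and transducers, beside 1.24% of all genes, the effect of GLI1 induction differed between D10 and D5 by a test of the difference between the 2 log2 fold changes, adjusted over all shared genes. For the semaphorin Sema3e the difference, D10 minus D5, was -1.05 (adjusted p = 0.00416), with -0.06 at D10 and 0.99 at D5 in the authors' deposited tables. For the axonal adhesion molecule Cntn2 it was 1.01 (adjusted p = 0.0330), with 0.0059 at D10 and -1.0 at D5 in the authors' deposited tables. For the VEGF family ligand Pgf it was -4.30, with -0.72 at D10 and 3.59 at D5 in the authors' deposited tables, at an average of about 1 CPM on both days.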

How the results depend on the processing

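No paired analysis was possible because the tables hold no values per library, and for the same reason leaving out each replicate was not run. At D5 the count of 3 changed semaphorin system genes became 1 with Holm's adjustment (Sema3e) and 0 with a 2-fold minimum, which Sema3e missed at 0.99. At D10 the count of 0 became 1 with rescaled z (Sema5a). The count of 1 gene that differed between days became 0 with Holm's adjustment and 2 with rescaled z (Sema3e and Sema5a). Among partners and transducers, 2 genes differed between days, and 1 did at a threshold of 0.01 (Pgf). Adjusted p-values covered, across the alternatives, 5.24e-05 to 0.0112 for Sema3e at D5, 1.95e-08 to 1 for Plxna2, 0.00196 to 1 for Crmp1, 0.0192 to 1 for Plxnc1, 0.000299 to 0.45 for the Sema3e difference, and 0.0119 to 1 for Sema5a at D10. The other 21 counts stayed within 1.5 times. No direction reversed, but only re-centring could reverse one, and its shifts were too small to do so for any gene it was applied to. Re-centring on the median of all genes shifted log2 fold changes by 0.00275 at D10 and 0.00196 at D5. With depth unknown and 3 or 4 samples a group, small changes in weakly expressed genes such as Sema3g and Sema6b were not detectable.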
